A study of Mus musculus with 25 samples.

Results

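The cells compared here were grafted squamous carcinoma cells of mouse skin that had been sorted by how much integrin alpha 6 they carried on their surface. Of the 25 samples of the series, 21 were RNA libraries, and 6 of these were chosen by their titles: 3 libraries of cells with high integrin alpha 6 (IntA6Hi) and 3 of cells with low integrin alpha 6 (IntA6Lo). The series as a whole set stem cells of resting skin beside cells of wounds and tumours. The 15 other RNA libraries, used as a reference, came from resting and wounded skin, and some were of genotype Tbr. The tumour titles begin with DS, as do those of the Tbr libraries, and the others with BK or CL. For these others tumour state and title set cannot be told apart. The tumours had 3 genotypes, labelled HRas, HRas TbrKO and TbrKO, and each gave 1 IntA6Hi and 1 IntA6Lo library. HRas is an oncogenic form of the small GTPase Ras, and KO stands for knockout. The labels do not spell out Tbr, nor the promoter or Cre that drove either allele. All 6 libraries are labelled as female, strain B6 and GFP+, so GFP marked the tumour cells in both gates. The growth label of the 6 libraries gives adult P60, without saying whether this was the age of the grafted cells' donors or of the hosts. No label says how many animals or grafts stood behind a library, so the 3 genotypes serve as the replicates of the gate difference. A p-value here speaks of the spread of that difference between genotypes. With so few libraries edgeR estimates this spread for each gene with the help of the other genes, so it is not that gene's own spread alone. Effects of genotype and technical differences cannot be told apart in this spread.

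Integrin alpha 6 pairs with integrin beta 4 in hemidesmosomes, the junctions that fasten basal keratinocytes to the basement membrane. Basal cells divide, and cells that leave the basement membrane lose the integrin, stop dividing and switch on the suprabasal keratins and the proteins of the cornified envelope. In carcinomas of this tissue the integrin-rich cells at the border to the stroma are used as a source of tumour-initiating cells. The contrast therefore allows the question of which transcripts go with a high integrin level inside the GFP+ tumour fraction.

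Depth was even, with 22870131 to 28562524 counted reads per tumour library, of which 6.01% to 7.97% fell on the top 10 genes. Epithelial transcripts were abundant in both gates. The basal keratin Krt5 lay between 10890 and 15984 CPM (read counts scaled to library size, after TMM), the adhesion molecule Epcam between 342 and 934 CPM, and Cdh1, which encodes E-cadherin, between 516 and 985 CPM. The sex-linked transcripts were those of both sexes. Xist, the RNA that coats the inactive X chromosome in female cells, and 4 Y-linked genes, Ddx3y, Eif2s3y, Kdm5d and Uty, were counted in all 6 libraries. Xist stood at 149 CPM in IntA6Hi and 327 in IntA6Lo of HRas, at 45.8 and 202 of HRas TbrKO, and at 1130 and 748 of TbrKO. The sum of the 4 Y-linked genes was 149 and 116, 224 and 150, and 63.3 and 192 CPM in the same order. So the HRas-bearing pairs had less Xist and more Y-linked RNA in IntA6Hi, and the TbrKO pair had the reverse. These genes were looked up after other values had been seen. The part of mixed cell sources in the gate differences was not tested, and the main counts are given with and without the TbrKO pair.

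Far more genes were lower than higher in IntA6Hi tumour cells. Of 14519 genes tested, 18 were higher (0.124% of those tested) and 428 lower (2.95%), by edgeR's quasi-likelihood test with genotype as a block and an adjusted p under 0.05. The 18 higher genes had log2 fold changes of 0.64 to 1.30. Those of the 428 lower genes ran from -4.96 to -0.74, with a median of -2.14, against a median of 0.05 over all genes tested. All 18 higher genes and 425 of the 428 lower ones had the same sign in the 3 pairs. Over all genes tested, 28.8% were higher in IntA6Hi in all 3 pairs and 21.2% lower in all 3. At an unadjusted p under 0.05 the split was more even, with 1269 genes higher and 2016 lower. DESeq2 on the same design called 310 higher and 1323 lower.

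The count of calls rested on which genotypes entered the fit. Without the TbrKO pair edgeR called 449 genes higher and 2459 lower, and these included all 446 genes called with it. Without the HRas pair or without the HRas TbrKO pair edgeR called 0 genes, with 1685 and 1684 genes at an unadjusted p under 0.05. DESeq2 called 640 and 523 genes in those 2 subsets. All 446 called genes kept their direction without the HRas pair, and so did the 443 of them that could be tested without the HRas TbrKO pair. In the fit of all 21 RNA libraries, 298 of the 446 were called, which were 4 of the 18 higher and 294 of the 428 lower genes.

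Integrin alpha 6 itself was the gate, so its transcript checks the sort and is no finding. Itga6 stood at 1859 CPM in IntA6Hi and 1099 in IntA6Lo of HRas, 1786 and 938 of HRas TbrKO, and 713 and 336 of TbrKO. IntA6Hi was higher in each pair, yet the groups overlapped, since the IntA6Hi library of TbrKO lay below the IntA6Lo libraries of the other genotypes. The log2 fold change was 0.92 ± 0.16 (standard error, n = 3 pairs), and its edgeR adjusted p of 0.0505 did not pass. Its partner in the hemidesmosome, Itgb4, stood at 1456 and 893, 1044 and 627, and 1115 and 481 CPM. IntA6Hi exceeded every IntA6Lo library there (0.88 ± 0.17, edgeR adjusted p = 0.066). Without the TbrKO pair both passed by edgeR, at 0.78 (adjusted p = 0.00627) for Itga6 and 0.657 (adjusted p = 0.0103) for Itgb4. Leaving out either of the other pairs instead gave 0 edgeR calls over all genes.

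Of the 10 genes of hemidesmosomes and basement membrane attachment, 0 were called by edgeR, and DESeq2 called 4 higher. At an unadjusted p under 0.05, 5 were higher and 0 lower. Their median log2 fold change was 0.53, and 8 of 10 were higher in IntA6Hi in all 3 pairs. Col17a1, a transmembrane collagen of the hemidesmosome, stood at 3600 and 2020, 2851 and 1705, and 4308 and 1564 CPM (1.01 ± 0.22, edgeR adjusted p = 0.0793). The gate ratio of this list was smaller in the HRas-bearing pairs, with median log2 ratios of 0.37 and 0.34, than in the TbrKO pair, with 1.11. Outside this list Lama5, a laminin alpha chain of the basement membrane, passed the test (0.76 ± 0.13, edgeR adjusted p = 0.0487) at 240 and 141, 147 and 96.8, and 309 and 162 CPM.

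**Figure D1:**
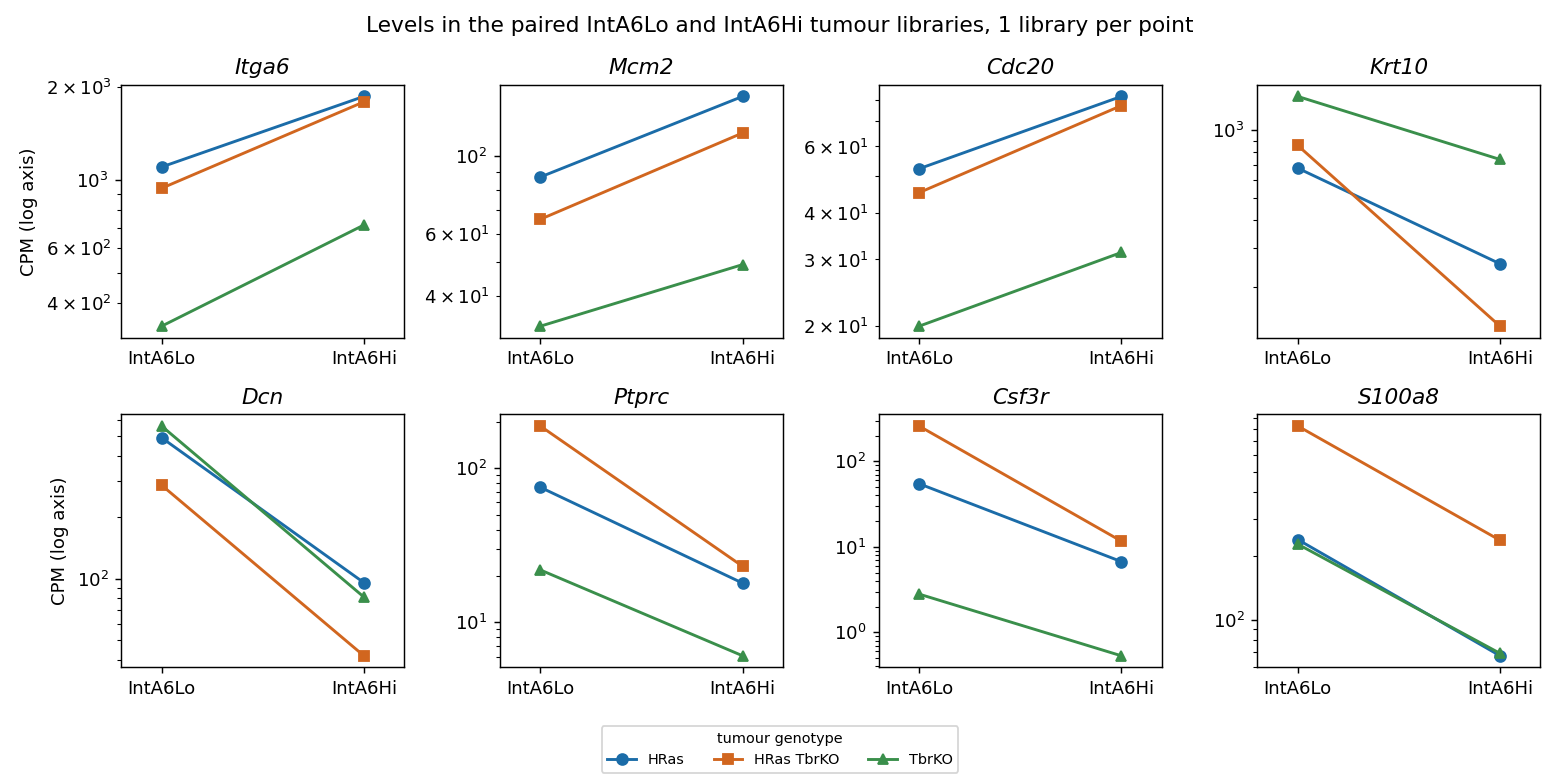
CPM (vertical, log axis, with its own range in each panel) of 8 genes in the IntA6Lo and IntA6Hi library of each tumour genotype, with a line joining the libraries of 1 genotype and 1 library per point. Itga6, Mcm2 and Cdc20 are higher at the IntA6Hi end of every line, and Krt10, Dcn, Ptprc, Csf3r and S100a8 lower there, with Dcn at 492, 288 and 562 CPM in IntA6Lo and 95.6, 41.8 and 81.3 in IntA6Hi.

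Genes of DNA replication and of mitosis had higher counts in IntA6Hi, by modest folds. Mcm2, a subunit of the ring helicase that licenses replication origins, stood at 147 and 86.9 CPM in HRas, 116 and 66.0 in HRas TbrKO, and 49.2 and 32.9 in TbrKO. Mcm3, another subunit of the ring, stood at 123 and 74.2, 111 and 63.9, and 37.8 and 25.3 CPM. IntA6Hi was higher in each pair, and the groups overlapped because both TbrKO libraries lay below all others. Mcm2 was higher by 0.72 ± 0.11 (n = 3 pairs) and Mcm3 by 0.70 ± 0.11, a ratio of 1.64 for Mcm2, both with an edgeR adjusted p of 0.0441. Cdc20, the activator of the anaphase-promoting complex, stood at 81.6 and 52.3, 77.1 and 45.2, and 31.3 and 19.9 CPM (0.69 ± 0.11, edgeR adjusted p = 0.0441). Incenp, a subunit of the chromosomal passenger complex that stands on none of the lists, was also called higher (0.64, edgeR adjusted p = 0.0492).

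Beyond these genes the cell cycle lists held many small differences in the same direction. Of 26 genes of replication licensing and the fork, 2 were higher and 0 lower, with a median log2 fold change of 0.59 and a range of 0.26 to 0.72. Of these, 25 were higher in IntA6Hi in all 3 pairs. Mcm5, another helicase subunit, stood at 0.72 ± 0.12 (edgeR adjusted p = 0.0528), Mcm6 at 0.69 and Pcna, the sliding clamp, at 0.57. Of 25 mitotic genes, 1 was higher and 0 lower, with a median of 0.59, and all 25 were higher in the 3 pairs. Mki67, the Ki-67 antigen of cycling cells, stood at 204 and 131, 151 and 96.2, and 73.5 and 57.2 CPM (0.55 ± 0.12, edgeR adjusted p = 0.0804). Topoisomerase Top2a had 0.56 ± 0.13 (edgeR adjusted p = 0.0906). DESeq2 called 12 licensing and 16 mitotic genes higher, and edgeR without the TbrKO pair called 16 and 20, against 449 of 14694 over all genes. Leaving out either of the other pairs gave 0 edgeR calls. With all 21 libraries in the fit, edgeR called 0 licensing genes and 1 mitotic gene.

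Other growth-related lists lay at similar values without calls by edgeR. The 16 genes of nucleotide supply and S phase had a median of 0.50, with 10 higher and 0 lower at an unadjusted p under 0.05 and 4 called higher by DESeq2. Rrm1 and Rrm2, the subunits of ribonucleotide reductase, had 0.50 and 0.53. For the 15 genes of ribosome biogenesis and Myc the median was 0.48, with 13 higher and 0 lower at an unadjusted p under 0.05 and 7 called higher by DESeq2. Ncl, which encodes the nucleolar protein nucleolin, stood at 1671 and 1114, 1565 and 976, and 1212 and 918 CPM (0.56 ± 0.15, edgeR adjusted p = 0.127). Inhibitors of the cell cycle had a median of -0.07 over 9 genes, 0 called by edgeR or limma, with 1 lower by DESeq2 and 1 higher and 2 lower at an unadjusted p under 0.05. Cdkn1a, which encodes the inhibitor p21, stood at 261 and 311, 264 and 448, and 382 and 617 CPM (-0.57 ± 0.16, edgeR adjusted p = 0.126). In these bulk libraries a larger share of cycling cells and more RNA per cycling cell cannot be told apart. Markers of other cell types moved the opposite way, being lower in IntA6Hi. Summed fibroblast markers were at 2160 to 7680 CPM in IntA6Hi and 9940 to 18900 in IntA6Lo, and summed leukocyte markers at 412 to 1000 and 1410 to 4390, and their part in the cell cycle and growth values was not tested.

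The promoters of the called replication and mitosis genes are shown because their lists shared sequence words that the comparison of counts did not use. The words searched on both strands were TTTCGCGC, TTTGGCGC, TTTCCCGC and TTTGCCGC for E2F, CCAAT for NF-Y, TTTGAA and TTCGAA for the cell cycle homology region (CHR), TGANTCA for AP-1, and CCGGAAG and AGGAAG for ETS factors. In windows from 250 bases before to 50 after the RefSeq start, 52.4% of 21 licensing promoters held an E2F word, against 4.32% of the 10792 tested genes that had an entry. The CHR word was in 80.0% of 20 mitotic promoters, against 16.5% of all. CCAAT was in 85.0% of the mitotic and 71.4% of the licensing promoters, against 42.3% of all. A match is a run of letters and not a shown binding site. The 150 bases before the start are printed for Mcm2 (chr6:88898781-88898930), Mcm3 (chr1:20820313-20820462) and Cdc20 (chr4:118437344-118437493), all on the minus strand, from RefSeq on build GRCm38.p6 and written 5′ to 3′. Capitals mark the words found. These genes were picked for display after their values had been seen.
Mcm2: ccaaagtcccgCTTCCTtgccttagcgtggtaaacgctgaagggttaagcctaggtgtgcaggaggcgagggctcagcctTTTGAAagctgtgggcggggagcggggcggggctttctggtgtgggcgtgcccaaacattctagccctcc
Mcm3: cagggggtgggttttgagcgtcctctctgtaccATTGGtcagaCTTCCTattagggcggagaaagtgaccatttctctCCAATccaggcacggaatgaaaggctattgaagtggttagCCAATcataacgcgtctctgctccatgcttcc
Cdc20: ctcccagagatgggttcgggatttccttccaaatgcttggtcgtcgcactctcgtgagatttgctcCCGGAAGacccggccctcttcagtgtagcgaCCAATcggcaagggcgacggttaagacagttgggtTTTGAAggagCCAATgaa
The window of Mcm3 held 3 CCAAT words, in 1 case on the other strand, and that of Cdc20 held 2, with 1 CHR word between them. Mcm2 had 1 CHR word and 0 CCAAT words. None of these windows held an E2F word.

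Of the 18 genes called higher, 15 were named for the size of their change among those with at least 5 CPM in every IntA6Hi library, and those not described above had varied functions. The limit leaves out Slc38a4 (1.30), which had the largest fold change of the 18, and Nrg2 (1.13). Nlrp10, a NOD-like receptor of the skin, stood at 51.3 and 25.0, 89.3 and 51.7, and 105 and 34.8 CPM (1.14 ± 0.18, edgeR adjusted p = 0.046). Has3, which makes the matrix sugar hyaluronan, stood at 200.0 and 94.0, 203 and 98.6, and 9.31 and 5.37 CPM (0.99 ± 0.12, edgeR adjusted p = 0.0297). Its level was thus far lower in both TbrKO libraries, at a similar gate ratio. The other members were the peptidase inhibitor Pi15 (1.10), the folate cycle enzyme Mthfd1 (1.05), Slc16a13 of the monocarboxylate transporter family (1.03) and the receptor tyrosine phosphatase Ptpru (0.97). Below them came the BMP and Wnt antagonist Sostdc1 (0.83), the glycosyltransferase Gyltl1b (0.82), Mab21l3 (0.81) and the arginine and lysine transporter Slc7a1 (0.68). Sostdc1 and Mab21l3 were most abundant in TbrKO, with 258 and 125 CPM and 98.3 and 52.2 CPM.

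Suprabasal differentiation genes were lower in IntA6Hi. Of 28 tested, 5 were lower and 0 higher by edgeR, with a median log2 fold change of -1.36, and 23 were lower in all 3 pairs. DESeq2 called 22 lower, and edgeR without the TbrKO pair 21. Dsg1a, a desmosomal cadherin of the upper layers, stood at 21.5 CPM in IntA6Hi and 68.7 in IntA6Lo of HRas, 14.0 and 98.7 of HRas TbrKO, and 42.7 and 335 of TbrKO (-2.50 ± 0.29, edgeR adjusted p = 0.0278). Klk7, a protease of corneocyte shedding, fell by 1.75 on the log2 scale, the filaggrin protease Asprv1 by 1.43, and the cornified envelope proteins Sprr2d and Sprr3 by 1.61 and 1.30. Sprr2d has close relatives in the same cluster, between which short reads can be split. The keratins of the first suprabasal layer did not pass. Krt1 stood at 248 and 672, 93.6 and 797, and 791 and 2029 CPM (-1.95 ± 0.39, edgeR adjusted p = 0.0696), and Krt10 at 254 and 679, 134 and 857, and 742 and 1417 CPM (-1.67 ± 0.36, edgeR adjusted p = 0.0803). Each pair was lower in IntA6Hi, but the TbrKO pair lay above the others in level, so the groups overlapped. Without it both passed by edgeR, at -2.323 for Krt1 (adjusted p = 0.0066) and -2.109 for Krt10 (adjusted p = 0.00383). When either of the other pairs was left out instead, edgeR called 0 genes of any kind.

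The basal keratins, the filament proteins of the basal layer, were not called. Krt5 stood at 15124 and 10890, 15984 and 11324, and 13279 and 10958 CPM, each IntA6Hi library above every IntA6Lo library (0.42 ± 0.22, edgeR adjusted p = 0.321). Its partner Krt14 stood at 14670 and 12044, 20856 and 16936, and 15450 and 20934 CPM, with the TbrKO pair in the opposite direction (0.05 ± 0.27, edgeR adjusted p = 0.923). Of the 11 basal identity genes 0 were called by edgeR, 5 were higher and 0 lower at an unadjusted p under 0.05, and 4 were higher by DESeq2. Their median log2 fold change was 0.42, with 6 higher and 2 lower in IntA6Hi in all 3 pairs. This stands beside medians of 0.48 for ribosome biogenesis and Myc and 0.34 for 15 genes of hypoxia and glycolysis. Trp63, the transcription factor p63 of stratified epithelia, had 0.52 ± 0.13. The alarm proteins S100a8 and S100a9, which both stressed keratinocytes and neutrophils make, were called lower. S100a8 stood at 67.5 and 239, 237 and 824, and 69.3 and 228 CPM (-1.78 ± 0.12, edgeR adjusted p = 0.0199), and S100a9 fell by 1.89 on the log2 scale. The summed leukocyte markers moved with them, at 412 to 1000 CPM in IntA6Hi and 1410 to 4390 in IntA6Lo, and their part in the S100 values was not tested. The wound keratin Krt6a stood at 6118 and 4980, 8936 and 7840, and 2640 and 6128 CPM.

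**Figure D2:**
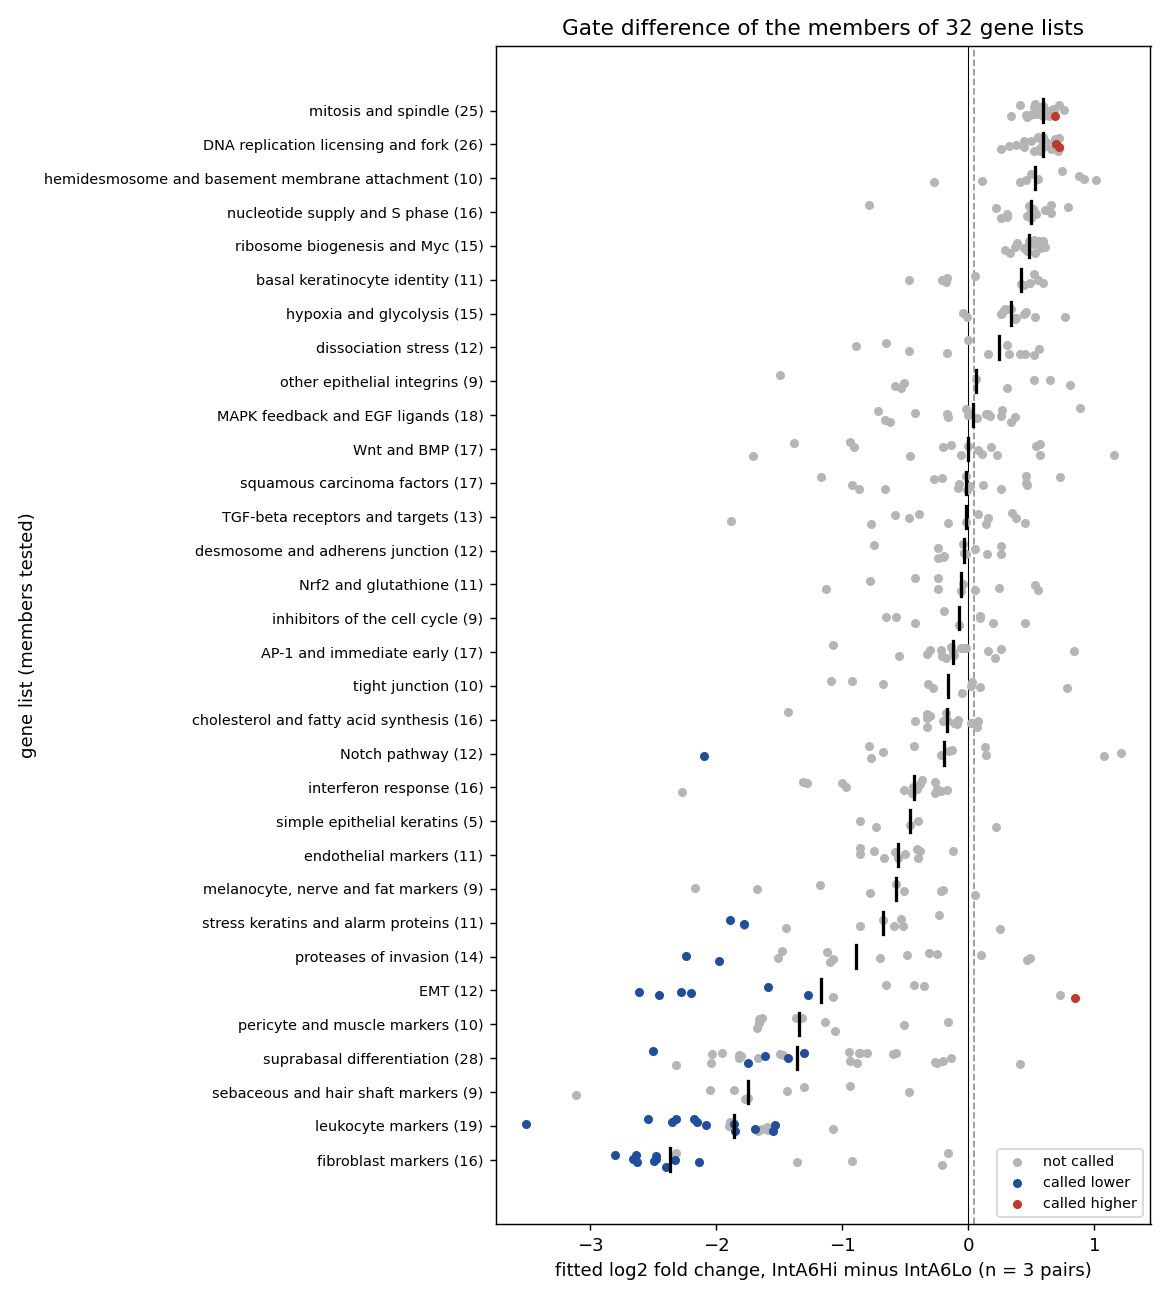
Fitted log2 fold change between IntA6Hi and IntA6Lo (horizontal, n = 3 pairs) of every tested member of 32 gene lists (rows, ordered by median), with 1 point per gene. Black bars are list medians, the dashed line is the median over all genes at 0.05, and colour marks calls. Mitosis and licensing lie highest at 0.59, and fibroblast markers lowest at -2.37.

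Transcripts of leukocytes were lower in IntA6Hi although both gates were sorted for GFP. Of 19 leukocyte markers tested, 12 were lower and 0 higher by edgeR, with a median log2 fold change of -1.86, and 18 were lower in all 3 pairs. Ptprc, the pan-leukocyte antigen CD45, stood at 18.0 and 75.1 CPM in HRas, 23.1 and 187 in HRas TbrKO, and 6.08 and 21.9 in TbrKO (-2.32 ± 0.26, edgeR adjusted p = 0.027). In the 15 other RNA libraries of the series Ptprc lay between 0.384 and 84.4 CPM, there scaled to each library's own total without TMM. Csf3r, the receptor for granulocyte colony-stimulating factor, stood at 6.73 and 54.9, 11.7 and 260.0, and 0.532 and 2.81 CPM (-3.51 ± 0.42, edgeR adjusted p = 0.0291). Level and ratio of Csf3r were both highest in HRas TbrKO, and the groups overlapped because TbrKO had little of it in either gate. The integrin Itgam of myeloid cells (-2.54), the signalling adaptors Fcer1g (-2.35) and Tyrobp (-2.18) and the invariant chain Cd74 (-1.53) were lower as well. Lyz2, the lysozyme of macrophages and neutrophils, did not pass (-1.67 ± 0.33, edgeR adjusted p = 0.0681), nor did the complement gene C1qa (-1.60). Of the 20 listed leukocyte markers, 1 was at 0 in the IntA6Hi library of HRas and 0 in the other 5 tumour libraries.

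Among called genes with at least 5 CPM in every IntA6Lo library, the 15 with the largest fall in IntA6Hi included several known from myeloid cells. Genes below that level, such as Csf3r and Clca4 (-4.96), fell further. Irg1, the itaconate enzyme of activated macrophages, stood at 10.6 and 80.4, 39.6 and 854, and 1.79 and 7.72 CPM (-3.25 ± 0.48, edgeR adjusted p = 0.0407). The C-type lectins Clec4e and Clec4d of myeloid cells fell by 3.14 and 3.11 on the log2 scale, the inflammasome sensor Nlrp3 by 2.99, the chemokine Ccl3 by 3.03 and its receptor Ccr1 by 2.88. Rab44 (-3.24), the adaptor Pik3ap1 (-3.05), haptoglobin Hp (-3.04), Ifitm1 (-2.98) and the RNA sensor Tlr13 (-2.94) were of similar size. Lilrb4 (-3.01) and Gp49a (-3.00) are near-identical receptors between which reads may be split, so their separate values are uncertain. The IntA6Lo library of HRas TbrKO was the highest of the 6 for Clec4e, with 542 CPM for Clec4e against 74.7 in HRas and 22.3 in the IntA6Lo library of TbrKO. Wisp2 (-2.94) and Pdgfrb (-2.80), a secreted protein and a growth factor receptor of mesenchymal cells, completed the 15. Of the 428 lower genes, 22 stand on the lists of other cell types, as 10 of 16 tested fibroblast and 12 of 19 tested leukocyte markers. Of 11 endothelial, 10 pericyte and muscle, and 9 melanocyte, nerve and fat markers 0 were called. Over all genes tested 2.95% were lower. These lists are short, so the 22 do not measure the part of other cell types in the 428.

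The promoters of the 4 called leukocyte markers with the smallest adjusted p for which RefSeq held an entry are shown for their ETS words. In the longer window 75.0% of 12 leukocyte promoters held one, against 49.7% of all and 56.3% of 293 genes called lower. The share was not particular to leukocyte markers. It was 80.0% of 10 promoters of invasion proteases, 75.0% of 8 of the epithelial-mesenchymal list and 30.0% of 10 fibroblast promoters. The 150 bases before the start came from chr7:128062490-128062639 and chr4:126024509-126024658 on the plus strand and from chr7:126704221-126704370 and chr1:138175127-138175276 on the minus strand of GRCm38.p6. Coro1a, an actin-binding protein of leukocytes, and Ptprc each had 2 starts in the table, of which 1 is shown. Capitals mark the words found.
Itgam: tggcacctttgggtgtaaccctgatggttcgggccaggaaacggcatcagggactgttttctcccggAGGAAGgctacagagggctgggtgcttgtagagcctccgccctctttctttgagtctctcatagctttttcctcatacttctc
Coro1a: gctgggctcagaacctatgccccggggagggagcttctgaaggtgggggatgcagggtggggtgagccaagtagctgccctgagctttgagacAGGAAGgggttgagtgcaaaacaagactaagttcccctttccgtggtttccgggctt
Ptprc: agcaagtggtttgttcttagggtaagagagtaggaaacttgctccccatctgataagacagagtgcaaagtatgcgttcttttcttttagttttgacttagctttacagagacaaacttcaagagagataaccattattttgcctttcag
Csf3r: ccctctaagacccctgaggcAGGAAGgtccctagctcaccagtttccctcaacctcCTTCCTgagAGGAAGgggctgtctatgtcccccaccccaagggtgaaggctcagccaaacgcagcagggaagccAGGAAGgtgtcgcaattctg
Csf3r held 4 ETS words, Itgam and Coro1a 1 each and Ptprc 0 in this window. No tumour ATAC peak overlapped the promoter windows of these 4 starts.

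Fibroblast transcripts were lower in IntA6Hi by similar folds. Of 16 tested, 10 were lower and 0 higher by edgeR, with a median of -2.37, and 14 were lower in all 3 pairs. Dcn, which encodes the collagen-binding proteoglycan decorin, stood at 95.6 and 492, 41.8 and 288, and 81.3 and 562 CPM. The lowest IntA6Lo library was thus above the highest IntA6Hi library (-2.64 ± 0.15, n = 3 pairs, edgeR adjusted p = 0.0199). In the 15 other RNA libraries Dcn did not exceed 17.0 CPM. The growth factor receptors Pdgfra (-2.63) and Pdgfrb (-2.80) and the collagens Col6a3 (-2.66), Col3a1 (-2.48), Col1a1 (-2.48) and Col1a2 (-2.40) were lower too. Col1a1 stood at 615 and 2912, 244 and 2857, and 484 and 1533 CPM. Summed over the list, fibroblast markers reached 4980 and 18900 CPM in HRas, 2160 and 14400 in HRas TbrKO, and 7680 and 9940 in TbrKO. The TbrKO pair thus differed least in the sum, and also in the median log2 ratio of the members (-2.29, -2.80 and -1.61). It did not for Dcn, with log2 ratios of -2.36, -2.78 and -2.79, nor for Pdgfra, with -2.26, -2.73 and -2.88. The 15 other libraries ranged from 436 to 8150 CPM. The highest was a library of hair follicle stem cells, although Dcn stood at 0.581 CPM there. None of the 16 markers was at 0 in a tumour library.

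Genes tied to epithelial-mesenchymal transition were mostly lower in IntA6Hi, as the fibroblast markers were. Of 12 tested, 6 were lower and 1 higher, with a median of -1.17. The transcription factors Prrx1 (-2.61), Snai1 (-2.28), Twist1 (-2.20) and Zeb1 (-1.59), fibronectin Fn1 (-2.45) and the filament protein Vim (-1.27) were lower. Fn1 stood at 155 and 734, 107 and 724, and 168 and 849 CPM. Vim stood at 331 and 729, 247 and 658, and 291 and 698 CPM. All of these are also expressed by fibroblasts, and the part of the fibroblast signal in them was not tested. The member that was higher, S100a4, a calcium-binding protein, stood at 387 and 228, 493 and 238, and 200.0 and 119 CPM (0.85 ± 0.13, edgeR adjusted p = 0.0438). Snai2, which basal keratinocytes also express, did not pass at 66.9 and 48.4, 55.8 and 36.1, and 52.8 and 24.9 CPM (0.73 ± 0.16, edgeR adjusted p = 0.0784). Without the TbrKO pair Snai2 passed by edgeR at 0.484 (adjusted p = 0.0382), while edgeR called 0 genes without either of the other pairs. Among the 14 proteases of invasion and their inhibitors, Mmp2 (-2.24) and Mmp3 (-1.98) were lower by edgeR and 0 higher, with a median of -0.89. Their median log2 gate ratios were -0.86 in HRas, -1.84 in HRas TbrKO and 0.17 in TbrKO. Without the TbrKO pair edgeR called 11 of the 14 lower, and the list median ran from -1.5 to -0.2 over the settings tried. Of 12 Notch pathway genes, edgeR called Heyl lower (-2.10) and 0 higher, while DESeq2 called 2 higher and 1 lower. The ligand genes Jag2 (1.21, edgeR adjusted p = 0.0746) and Dll1 (1.08, edgeR adjusted p = 0.148) had higher counts in IntA6Hi in all 3 pairs. They were the only 2 of the 12 to do so, while 4 were lower in all 3 pairs, and the list median was -0.19.

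Markers of further cell types had smaller or less even differences. Of 11 endothelial markers 0 were called by edgeR, with 0 higher and 4 lower at an unadjusted p under 0.05, 1 lower by DESeq2 and a median of -0.56. Pecam1, the endothelial antigen CD31, stood at 69.0 and 89.1, 57.1 and 104, and 28.7 and 28.0 CPM. Summed endothelial markers were at 104 to 304 CPM in IntA6Hi and 110 to 428 in IntA6Lo, against 2.36 to 27.4 in the 15 other libraries. The tumour libraries of both gates thus lay above all other RNA libraries of the series, most of which belong to other title sets. For pericyte and muscle markers 0 of 10 were called, with 0 higher and 3 lower both at an unadjusted p under 0.05 and by DESeq2 (median -1.34), and for sebaceous and hair shaft markers 0 of 9, with 7 lower at an unadjusted p under 0.05 and 5 by DESeq2 (median -1.75). Krt79, a keratin of the follicle infundibulum and sebaceous duct, stood at 111 and 341, 27.9 and 541, and 170.0 and 1771 CPM (-3.11 ± 0.55, edgeR adjusted p = 0.056). Of 12 genes of the dissociation stress response 0 were called by edgeR, with 4 higher and 2 lower at an unadjusted p under 0.05, 1 higher by DESeq2 and a median of 0.24.

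**Figure D3:**
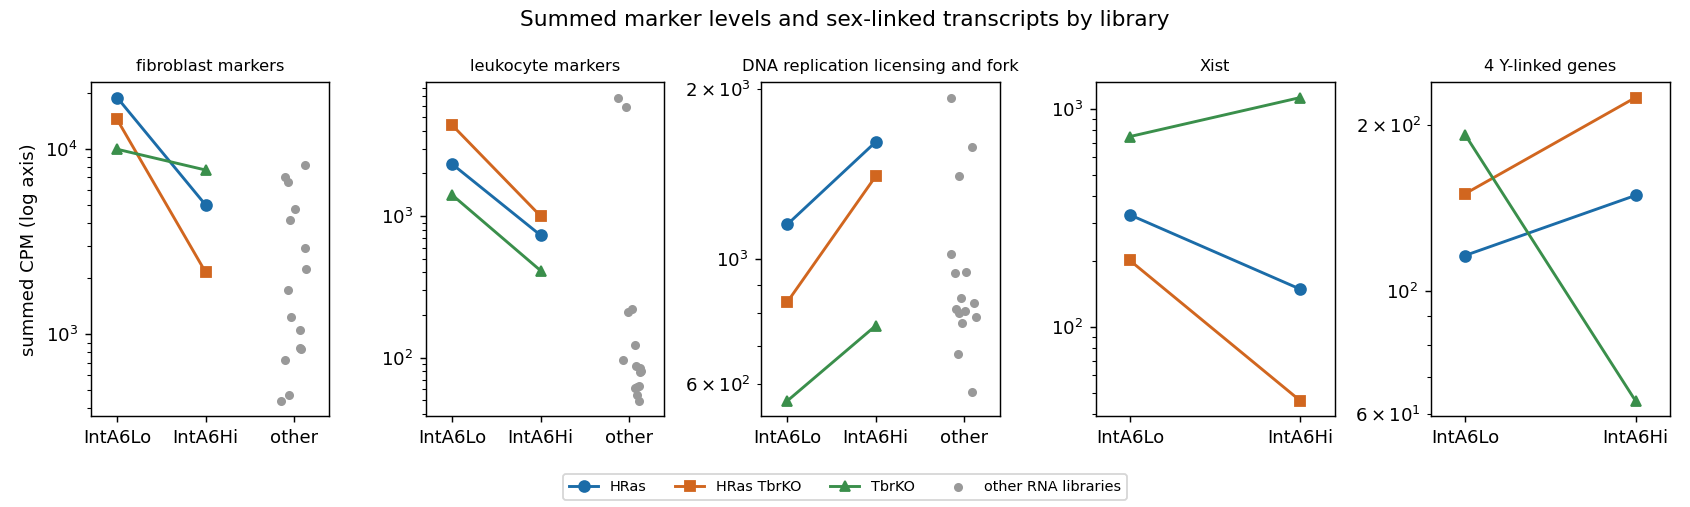
Summed CPM (vertical, log axes with their own ranges) of fibroblast markers, leukocyte markers and licensing genes, and the CPM of Xist and of 4 Y-linked genes, in the IntA6Lo and IntA6Hi library of each genotype, joined by lines. Grey points are the 15 other RNA libraries. Leukocyte markers are at 1410 to 4390 CPM in IntA6Lo and 412 to 1000 in IntA6Hi, and the TbrKO lines of Xist and of the Y-linked genes run against those of the other genotypes.

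Several differences between the gates depended on genotype. A test of the gate difference in the HRas-bearing pairs against that in the TbrKO pair called 750 genes (5.17% of those tested), 288 with a positive and 462 with a negative difference. It rests on 1 TbrKO pair and 1 residual degree of freedom, and on simulated counts it made more false calls than its threshold allows. Of the 446 genes called in the overall gate comparison, 4 were also called here, Lsp1, Cytip, Slc6a14 and Ccl8. A gate difference that varies by genotype adds to the residual spread of the overall fit. Few genes can therefore be called in both, and this overlap says little about the genes. The genes named in the next 2 paragraphs were in part chosen after their values had been seen. The genotypes also differ in their levels, as with Hmga2, a chromatin protein of fetal and tumour cells, at 533 and 420 CPM in HRas, 347 and 266 in HRas TbrKO and 0.95 and 2.17 in TbrKO.

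Of 5 simple epithelial keratins 4 passed this test, of 10 tight junction genes 5, and of 16 genes of cholesterol and fatty acid synthesis 11, each with the IntA6Hi over IntA6Lo ratio higher in the HRas-bearing pairs. Krt7 (0.43) and Cldn8 (0.69) were among the members that did not pass. Krt19, a keratin of simple and follicle epithelia, stood at 351 and 226, 637 and 497, and 3.95 and 29.3 CPM. Its gate difference was larger by 3.38 ± 0.26 on the log2 scale in the HRas-bearing pairs (edgeR adjusted p = 0.00483). The barrier protein Cldn4 stood at 444 and 554, 637 and 679, and 228 and 1260 CPM (2.26 ± 0.23, edgeR adjusted p = 0.00739), and its relative Cldn7 had log2 gate ratios of 0.32, 0.53 and -1.98. The cholesterol and fatty acid list had median log2 gate ratios of 0.21 in HRas, 0.33 in HRas TbrKO and -1.09 in TbrKO. Hmgcs1, an early enzyme of the mevalonate pathway, stood at 324 and 310, 395 and 335, and 119 and 300.0 CPM (1.48 ± 0.22, edgeR adjusted p = 0.0171). In the Nrf2 and glutathione list 4 of 11 passed, among them the quinone reductase Nqo1 at 32.9 and 20.4, 43.1 and 27.7, and 18.4 and 43.2 CPM. In TbrKO the IntA6Hi library was thus below its partner for each gene whose levels are given here, and Cldn4 was lower in IntA6Hi in all 3 pairs.

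Of 16 fibroblast markers 4 passed, of 10 pericyte and muscle markers 3, and of 14 proteases of invasion and inhibitors 5, each with the IntA6Hi over IntA6Lo ratio higher in the TbrKO pair. Most of the fibroblast markers, Dcn, Col1a1 and Pdgfra among them, did not pass. Postn, the matricellular protein periostin, stood at 225 and 1040 CPM in HRas, 140.0 and 848 in HRas TbrKO, and 3800 and 1790 in TbrKO (difference of the gate effects -3.49 ± 0.26, edgeR adjusted p = 0.00483). The proteoglycan gene Prelp stood at 7.87 and 31.6, 3.08 and 25.7, and 342 and 103 CPM. Acta2, smooth muscle actin, stood at 50.3 and 146, 29.3 and 166, and 872 and 434 CPM (-3.02, edgeR adjusted p = 0.012). These 3 genes were higher in the IntA6Hi than in the IntA6Lo library of TbrKO, whereas Dcn and Col1a1 were lower there. Lgr5, the Wnt-pathway receptor of follicle stem cells, stood at 1.14 and 5.19, 0.533 and 3.38, and 28.4 and 7.51 CPM (-4.29 ± 0.41, edgeR adjusted p = 0.00628). Of 13 genes of TGF-beta receptors and targets 5 passed. Tgfbr2, 1 of the genes to which the label Tbr may refer, stood at 211 and 230, 227 and 237, and 468 and 195 CPM (-1.35 ± 0.21, edgeR adjusted p = 0.0194). A count over the whole gene does not show whether an exon was deleted, so it does not check the knockout. Hras, the gene of the oncogene label, stood at 269 and 223, 294 and 222, and 142 and 161 CPM (gate difference 0.17 ± 0.16, edgeR adjusted p = 0.55). Which reads of an introduced oncogene were counted there is not given in the sources used here.

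**Figure D4:**
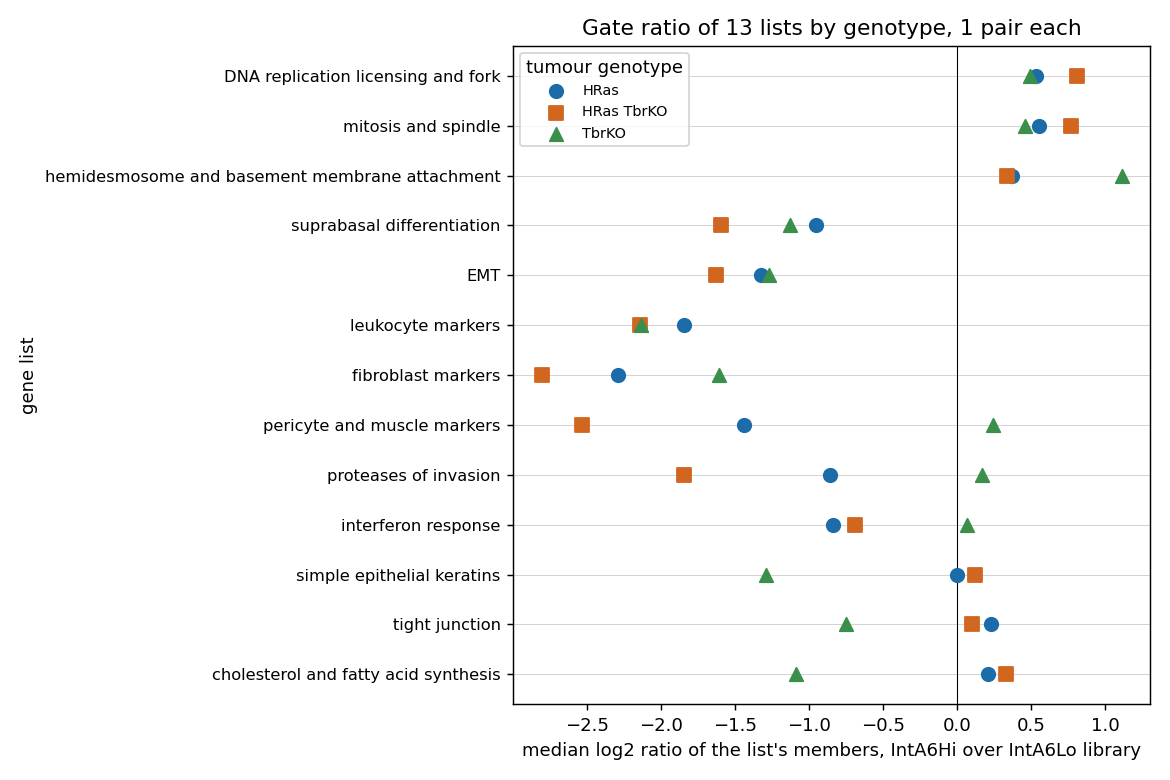
Median log2 ratio of the IntA6Hi over the IntA6Lo library (horizontal) for the members of 13 gene lists (rows) in each genotype, with 1 pair of libraries per point. Licensing, mitosis, suprabasal, leukocyte and fibroblast lists have the same sign in the 3 genotypes, and cholesterol synthesis has 0.21 and 0.33 in the HRas-bearing pairs against -1.09 in TbrKO.

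Open chromatin was deposited for 1 pooled sample of tumour cells with high integrin alpha 6 and beta 1 from HRas-induced carcinomas in mice of mixed CD1/B6 strain. It has 54201 peaks, no replicate and no IntA6Lo counterpart, so it can be set beside the gate difference but not compared between gates. A peak overlapped the promoter window of 74.8% of the 10792 tested genes with an entry. Of the genes called higher, 70.0% of 10 had one, and of those called lower 18.4% of 293. Licensing promoters had a peak in 90.5% of 21 genes and mitotic promoters in 95.0% of 20. Of leukocyte promoters 8.33% of 12 had a peak, as did 1 of 10 fibroblast promoters and 26.1% of 23 suprabasal ones. At the windows of the cell cycle genes printed above, Mcm3 had a peak of 14.3-fold enrichment and Cdc20 of 7.03-fold, both the authors' values, and Mcm2 had none at the start listed by RefSeq. The suprabasal genes had the AP-1 word in 47.8% of 23 promoters, against 7.19% of all.

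**Figure D5:**
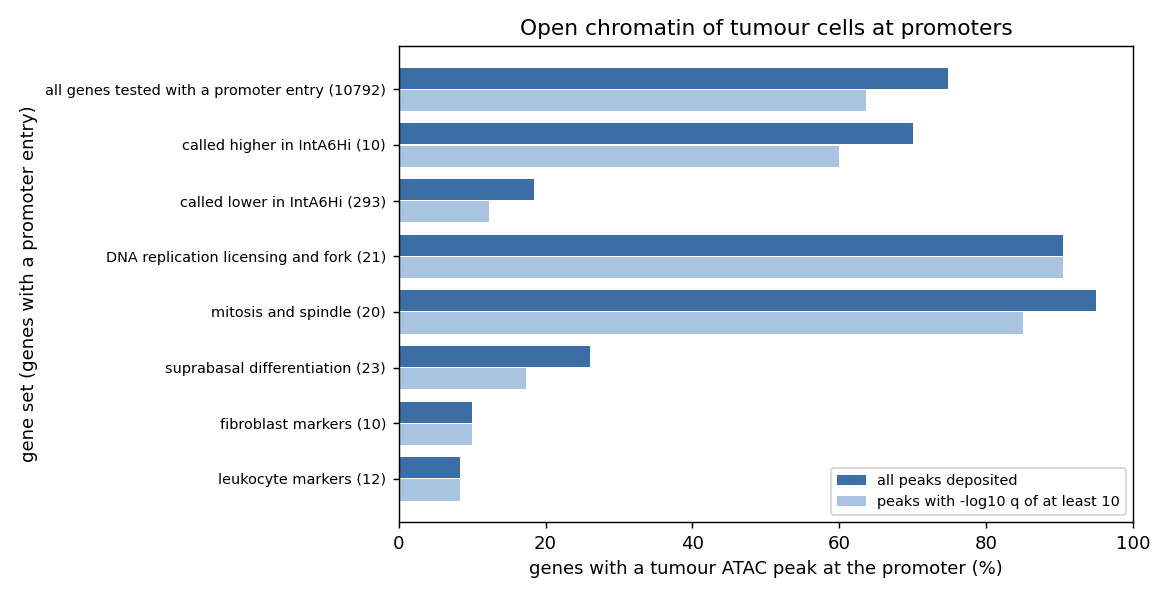
Share of genes (horizontal, percent) with a tumour ATAC peak at a promoter window, for all tested genes with an entry, the called genes and 5 lists (rows, number of genes in brackets), with all deposited peaks and with the stronger ones. Genes called lower stand at 18.4% against 74.8% of all genes.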

How the data were processed

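The RNA values are whole-number counts of reads per gene that the authors deposited for 21 libraries without normalisation. Per the submitters' processing notes STAR and build mm10 were used for RNA, while the counting tool, its use of strand and the gene models are not given in the sources used here. Per the labels' protocols, total RNA was prepared with TruSeq and read from 1 end over 51 cycles. All value columns matched a sample (0 unmatched), and a line of totals was left out. The tumour peak list came from MACS2 2.1.1.20160309, per the file headers, at a q-value of 0.05, with the fold enrichment of each peak as a ratio to local background and its -log10 p-value and -log10 q-value as deposited by the authors. Bowtie and Picard were also named for ATAC in the submitters' processing notes.

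Genes kept by filterByExpr entered edgeR 4.0.16 (R 4.3.3). Its quasi-likelihood F test was run on TMM-scaled libraries with genotype as a block, on 6 libraries with 2 residual degrees of freedom. P-values were adjusted by Benjamini-Hochberg over all 14519 genes tested at a threshold of 0.05. The standard error was taken as the log2 difference over the root of its F value. It thus also rests on a spread moderated across genes. Values in sentences stand in the order IntA6Hi and IntA6Lo of HRas, of HRas TbrKO and of TbrKO unless another order is given. Summed marker levels, and gene levels in the 15 other RNA libraries, are CPM of each library's own total without TMM. Log2 ratios of single pairs used a prior count of 2. IntA6Hi and IntA6Lo libraries of the same genotype deviated together from their group means (correlations across genes of 0.80, 0.68 and 0.80, against -0.74 to 0.41 between genotypes). The pairing itself comes from the labels, since each genotype gave 1 library per gate. The tests were checked on simulated counts. DESeq2 1.42.0 and limma 3.58.1 served as alternatives.

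Genes were named by a rule: 4 given markers, the 15 called genes with the largest change in each direction with at least 5 CPM in every library of the higher gate, and in each of 32 lists up to 4 called and 2 uncalled members. Not all uncalled members so named are described, and some genes are not reported here. Lists are given by counts and medians, with no set test. Promoter windows for 74.3% of the tested genes came from RefSeq on GRCm38.p6. The members and lists were chosen with earlier results of these data known.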

Additional observations from a re-analysis of the deposited data

Results flagged for a closer look

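The gate difference of the following genes differed between the HRas-bearing pairs and the TbrKO pair by edgeR's test of that difference, at an adjusted p under 0.05. Values are log2 differences of the gate effects, HRas-bearing minus TbrKO, and each rests on the single TbrKO pair. Positive values were found for the keratins Krt19 (3.38), Krt6a (1.46), Krt18 (1.09) and Krt8 (1.05), and for the tight junction genes Cldn3 (3.17), Cldn7 (2.41), Cldn4 (2.26) and Cldn1 (1.11). They were also found for the sterol synthesis gene Hmgcs1 (1.48), the desmosomal cadherin Dsg3 (1.40), the receptor Notch1 (1.07), Nqo1 (1.89) and the lysozyme gene Lyz2 (1.38). Among the Y-linked genes Ddx3y had 2.18 and Eif2s3y 1.96.

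Negative values were found for Lgr5 (-4.29), Prelp (-4.22), Postn (-3.49), the ferroxidase Cp (-3.41) and Cspg4 (-3.18), a proteoglycan of pericytes. The melanin synthesis gene Dct had -3.69, Wnt3 -2.80, Xist -2.23 and Tgfbr2 -1.35. Dct and Wnt3 were at or below 10.8 and 4.15 CPM in every tumour library. The part of the sex-linked difference between the pairs in the other values was not tested.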

How the results depend on the processing

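The overall gate comparison called 446 genes (18 higher, 428 lower). DESeq2 called 1633 (310 and 1323), limma-voom 731 (66 and 665), edgeR with DESeq2's size factors 238 (5 and 233), without a filter on low counts 777 (67 and 710) and with a mean of at least 5 CPM 212 (2 and 210). With no replicate block edgeR called 0 genes (0 higher, 0 lower), with 1119 at an unadjusted p under 0.05, and DESeq2 with no replicate block called 396. Leaving out 1 pair or 1 library gave 0 to 3312 calls in all, 0 to 891 higher and 0 to 2459 lower, with the large counts where TbrKO was left out. Leaving out 1 library of a pair leaves its partner without a comparison. DESeq2 called 523 to 2126 genes with 1 pair left out. The DESeq2 fits without pairs or block were chosen after seeing the data. The count of genes whose gate difference differed by genotype was 750, with 751 by DESeq2 and 449 at a mean of at least 5 CPM. The causes of these differences were not tested. The median over all genes stayed between 0.01 and 0.09 in every setting.

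Of 512 list medians under other settings, 482 moved by less than the spread between pairs. The medians of licensing (0.51 to 0.67), mitosis (0.50 to 0.65), suprabasal (-1.46 to -1.05), leukocyte (-2.11 to -1.70) and fibroblast genes (-2.68 to -1.93) kept their sign in every setting. Signs of named genes that were not called changed in a few. Krt14 (0.05) was at -0.01 with at least 5 CPM and ran from -0.09 to 0.31 with 1 pair or library left out, below 0 without libraries of HRas or HRas TbrKO. In the same way Tgfbr2 (0.35) ran from -0.16 to 0.59, Krt6a (-0.23) from -0.53 to 0.26 and Ddx3y (-0.17) from -0.64 to 0.54, each with the sign reversed where TbrKO libraries were left out. Xist (-0.91) was at 0.05 with no replicate block. With peaks of -log10 q of at least 10, the promoters with a peak were 63.6% of all genes and 12.3% of those called lower. In the 150 bases before the start only, the CHR word was in 35.0% of mitotic and 7.70% of all promoters. With 3 libraries per gate and 1 TbrKO pair, differences of small size could not be resolved by the main test.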
